A study of Mus musculus with 24 samples.

Results

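The genes described here are 8 receptors that add a second, costimulatory signal to antigen recognition in T cells and that were given as a list of genes: *Tnfrsf4* (OX40), *Tnfrsf9* (4-1BB), *Tnfrsf18* (GITR), *Tnfrsf1b* (TNFR2), *Cd27*, *Cd28*, *Icos* and *Cd226* (DNAM-1). They are 8 of the 55401 genes of the deposited count tables, and all 8 had at least 100 summed counts there. They were followed in liver-resident invariant natural killer T (LiNKT) cells sorted from NOD mice, an inbred strain that develops autoimmune diabetes spontaneously. The mice were untreated or had been given αGalCer/CD1d-NPs, which are iron oxide nanoparticles coated with CD1d molecules that present the glycolipid αGalCer, at 20 µg of protein for 2 doses per week over 5 weeks, starting at 8 to 10 weeks of age. The sample labels call the control mice untreated. The study's methods also name control mice given Cys-NPs at the same amount of iron, without saying in which readout. A figure legend of the study describes the multiome controls as given vehicle and the mice as 8 weeks old. The study asked whether this treatment with αGalCer/CD1d-NPs changes the epigenome of LiNKT cells along with their gene expression.

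Of the deposited readouts, 3 were used here. Single-cell RNA was read with SmartSeq2, a full-length method in which 1 cell is sorted into each well, in cells of 3 untreated and 3 treated male mice of 13 to 15 weeks. DNA methylation was read by whole genome bisulfite sequencing (WGBS) of pooled cells from 7 untreated female mice of 17 weeks and 4 treated mice of 16 weeks, whose sex is not stated, so that age and possibly sex differed along with treatment. Open chromatin was read in nuclei of 5 untreated and 4 treated male mice of 13 to 15 weeks (multiome), and the deposited fragments of both libraries sit in 1 file in which barcodes end in 1 or 2. No label ties an ending to a group, so the 2 endings are given as endings and are not called untreated or treated. In each readout a group is 1 sample as deposited, because the labels do not separate the mice. The WGBS was made in 3 replicates per group, whose values are merged into 1 mean, and its differentially methylated regions were called by the authors' own test between groups. No test between groups was made here, no difference in RNA or open chromatin below has a replicate check, and intervals cover counting error only. Intervals of the sums take each read as independent, and those of the shares each cell or nucleus. Whether 2 of them overlap is therefore no test between groups.

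The 273 untreated and 251 treated SmartSeq2 cells that the study assigned to a sub-cluster were used (its text states a higher number of untreated cells than this list holds), with medians of 635257 and 599896 counts per cell on 861 and 850 genes. The iNKT and T cell markers were present in both groups: all 11 were detected, their levels summed to 7812 CPM (counts per 1000000 counts) in all untreated and to 7517 CPM in all treated cells, and 273 of 273 and 239 of 251 cells held reads on at least 1 of them. Reads on Trav11, the V segment of the invariant TCRα chain, were found in 56 and 49 cells. Markers of other cells differed between the groups. The 6 macrophage markers summed to 0.0174 CPM in 3 cells of untreated and to 1919 CPM in 11 cells of treated mice, led by Lyz2, with Clec4f at 0 in both. The 5 hepatocyte markers were at 0 in untreated cells and summed to 96.5 CPM in 3 treated cells, the 5 B cell markers summed to 0.0116 CPM and 0, and of the 4 endothelial markers only Clec4g had reads, in 1 treated cell. The 5 NK cell markers summed to 541 CPM in 93 cells without and 1539 CPM in 158 cells with treatment, with 4 reads in all on Eomes. The 6 markers of Foxp3 regulatory T cells had 60 positive cells and a sum of 153 CPM without treatment, and 48 cells and 143 CPM with it. Of these, Ikzf2 had reads in 11 untreated and 33 treated cells, Il2ra in 51 and 15, Nrp1 in 0 and 3, and Foxp3 itself in 0 and 1. Without the cells that held reads on macrophage, hepatocyte, B cell or endothelial markers, the number of receptors past 2-fold in the sums stayed at 4, and the number past 1.5-fold in the shares was 2 in place of 3. Of all genes tested, 43.3% and 24.6% passed these folds, in either direction, without such cells. The part of the NK and regulatory T cell markers in the results was not tested.

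Costimulatory receptors fall into a pair of structural families. OX40, 4-1BB, GITR, TNFR2 and CD27 belong to the TNF receptor superfamily, bind ligands of the TNF family and signal through TRAF adaptors to NF-κB, which favours survival and cytokine production. CD28, ICOS and CD226 belong to the immunoglobulin superfamily. CD28 binds CD80 and CD86, ICOS binds ICOSL and recruits PI3-kinase, and CD226 binds CD155 and CD112 and works with the integrin LFA-1, while CTLA-4, TIGIT and CD96 compete with CD28 and CD226 for the same ligands. On T cells, OX40, 4-1BB and ICOS are classically induced by activation, whereas CD27 and CD28 are already present on resting cells.

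Stretches of DNA in or near *Tnfrsf4* and *Icos* whose methylation differed are shown first, because these regions carry the epigenetic part of the results. They are read from the plus strand of the RefSeq GRCm38 assembly, on which both genes lie, and capitals mark CpG sites, the sites that are methylated. The Tnfrsf4 upstream stretch (chr4:156008360-156008659) lies in an intron of the neighbouring gene Sdf4. The Tnfrsf4 first intron (chr4:156014007-156014227) is shown whole and lies within a differentially methylated region (DMR) that spans the transcription start site (TSS). The Icos far upstream (chr1:60930365-60930664) and Icos upstream (chr1:60936941-60937217) stretches overlap no gene of GENCODE release M21, while RefSeq predicts the long non-coding RNA Gm34649 over both. The Icos proximal stretch (chr1:60975224-60975441) lies just before the gene, in no annotated gene. The Icos hyper-methylated stretch (chr1:60960594-60960893) is shown as the 1 region near this gene in which methylation was higher after treatment.
Tnfrsf4 upstream: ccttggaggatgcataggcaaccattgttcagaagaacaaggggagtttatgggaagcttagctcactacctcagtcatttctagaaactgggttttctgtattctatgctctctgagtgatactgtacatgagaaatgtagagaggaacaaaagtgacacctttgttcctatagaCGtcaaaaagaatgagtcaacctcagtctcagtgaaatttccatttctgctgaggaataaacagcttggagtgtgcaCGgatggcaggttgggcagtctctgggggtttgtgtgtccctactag
Tnfrsf4 first intron: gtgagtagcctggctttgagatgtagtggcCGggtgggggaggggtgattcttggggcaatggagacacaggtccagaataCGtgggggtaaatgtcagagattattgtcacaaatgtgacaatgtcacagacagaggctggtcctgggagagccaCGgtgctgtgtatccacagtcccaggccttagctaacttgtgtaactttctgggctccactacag
Icos far upstream: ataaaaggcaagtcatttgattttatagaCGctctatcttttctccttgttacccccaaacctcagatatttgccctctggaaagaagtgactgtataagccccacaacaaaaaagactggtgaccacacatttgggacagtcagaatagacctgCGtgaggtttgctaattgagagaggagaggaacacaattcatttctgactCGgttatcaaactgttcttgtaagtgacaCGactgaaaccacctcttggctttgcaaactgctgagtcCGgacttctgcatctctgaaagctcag
Icos upstream: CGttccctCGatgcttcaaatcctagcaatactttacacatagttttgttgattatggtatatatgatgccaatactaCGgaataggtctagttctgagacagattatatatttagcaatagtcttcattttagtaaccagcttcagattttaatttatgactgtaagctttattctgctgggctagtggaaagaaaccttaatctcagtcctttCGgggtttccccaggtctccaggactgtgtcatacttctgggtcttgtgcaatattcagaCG
Icos proximal: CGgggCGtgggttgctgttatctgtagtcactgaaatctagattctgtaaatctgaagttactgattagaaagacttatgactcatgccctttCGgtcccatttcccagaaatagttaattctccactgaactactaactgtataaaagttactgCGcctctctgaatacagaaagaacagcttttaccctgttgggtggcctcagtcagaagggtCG
Icos hyper-methylated: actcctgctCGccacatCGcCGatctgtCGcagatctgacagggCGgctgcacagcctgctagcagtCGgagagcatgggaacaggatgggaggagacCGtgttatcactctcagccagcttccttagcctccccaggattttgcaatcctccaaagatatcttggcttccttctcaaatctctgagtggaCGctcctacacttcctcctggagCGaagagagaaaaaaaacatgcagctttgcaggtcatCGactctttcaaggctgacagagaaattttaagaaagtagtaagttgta

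Mean methylation was lower in treated cells in 5 of these stretches and higher in the Icos hyper-methylated one. The 4 cytosines of the 2 CpGs in Tnfrsf4 upstream had a mean methylation of 79.5% in untreated and 21.3% in treated cells, and the 6 cytosines of the first intron 87.2% and 34.7%, with every treated value below every untreated one in both stretches. The 10 cytosines of Icos upstream averaged 88.1% and 27.5%, those of Icos proximal 82.6% and 20.6%, and those of Icos far upstream 79.2% and 30.2%. In the Icos hyper-methylated stretch, 1 of 20 cytosines was lower in treated cells, and the means were 41.0% and 65.3%.

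The same stretches were searched on both strands for the core letters of 4 motifs of T cell transcription factors: TGANTCA (AP-1), TGGAAA (NFAT), TGTGGT (Runx) and TCACAC (T-box). AP-1 letters occurred in Tnfrsf4 upstream and in Icos proximal. NFAT letters occurred in Tnfrsf4 upstream, Icos far upstream and Icos upstream, and Runx letters in Icos far upstream. No match was found in the first intron of *Tnfrsf4* or in the hyper-methylated stretch. As a background, 1400 DMRs lower in treated cells were long enough to be cut to 300 bases. Of these, 29.7% held the AP-1, 37.6% the NFAT, 24.6% the Runx and 22.4% the T-box letters. Of 32851 RefSeq promoters, 7.81%, 21.4%, 16.8% and 14.5% did. At the shorter length of Icos proximal, 24.4% of such DMRs held the AP-1 letters, and at that of Icos upstream 35.2% the NFAT letters. DMRs higher in treated cells were not part of this background. These matches describe the letters and no binding.

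Of the 8 receptors, *Tnfrsf4* had the largest ratio of summed counts between treated and untreated cells. In points of the share of cells with reads, *Cd27*, *Cd226* and *Icos* differed more than *Tnfrsf4*. *Tnfrsf9*, *Tnfrsf1b* and *Cd27* were also at least 2-fold higher in the summed counts of treated cells, and no receptor was 2-fold lower. For *Tnfrsf9* the share of positive cells was lower and the order of the sums turned within 1 lane, so its sum is given as a value only. Among all 12659 genes with at least 100 summed counts, 23.9% were at least 2-fold higher and 20.4% at least 2-fold lower in treated cells, so that the 4 receptors out of 8 stood against a background in which 44.3% of genes passed this fold in either direction. The median log2 ratio (CPM + 1) was 1.15 over the 8 receptors and 0.034 over all genes tested, with both lanes together. Within lane A (defined below) the log2 ratios were 7.06 for *Tnfrsf4*, 1.18 for *Cd27* and 1.06 for *Tnfrsf1b*. Those of the other receptors there were lower, at 0.31 (*Icos*), 0.083 (*Tnfrsf18*), -0.32 (*Cd28*), -0.33 (*Cd226*) and -0.44 (*Tnfrsf9*). The share of cells with at least 1 read, which does not let a single cell with many reads set the value, was at least 1.5-fold higher in treated cells for *Tnfrsf1b*, *Icos* and *Cd27*, out of 6 receptors with reads in at least 20 cells, as compared to 10.2% of 5307 genes. *Cd226* was the only 1 of the 8 whose sum over all used cells was lower in treated mice.

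**Figure D1:**
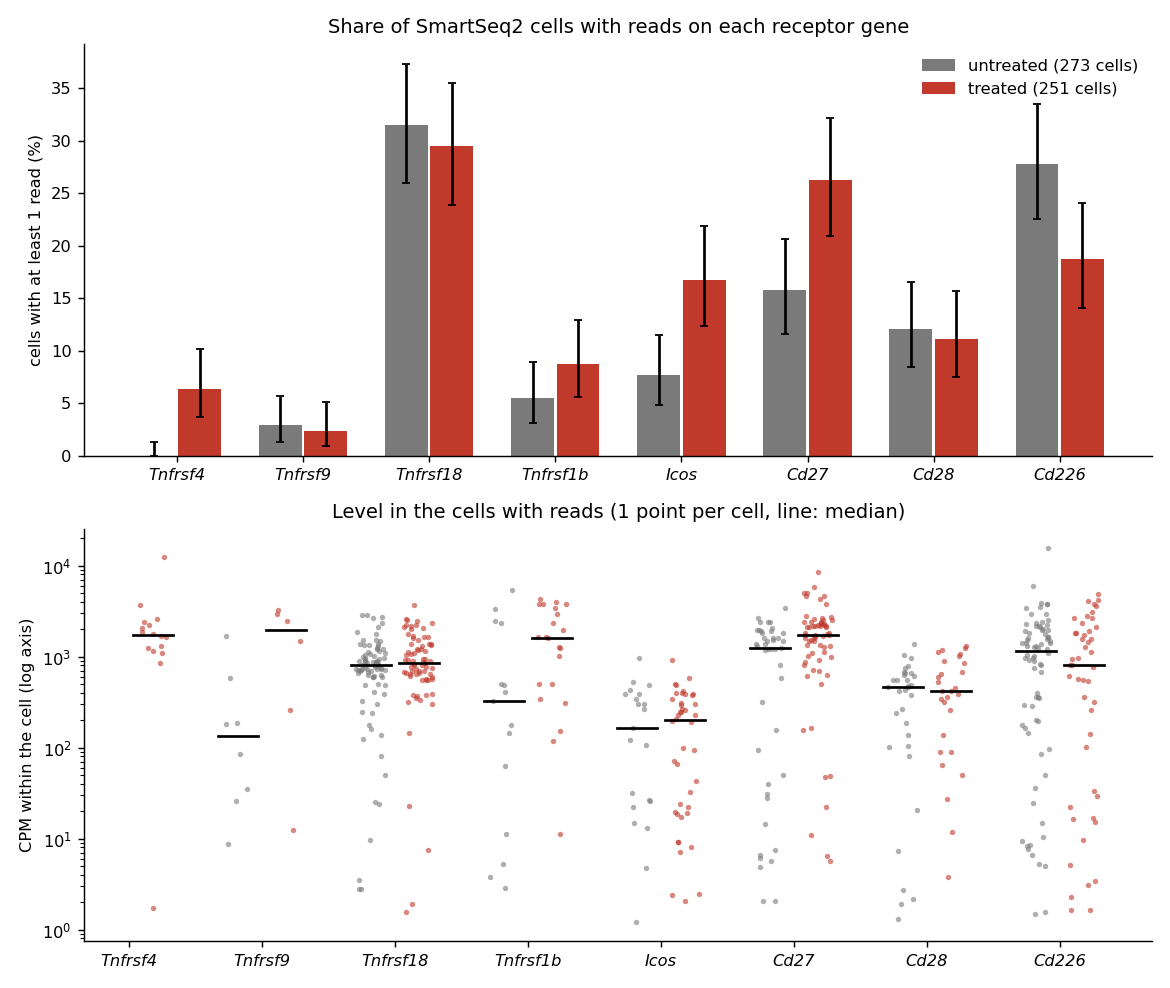
The upper panel plots the percentage of SmartSeq2 cells with at least 1 read on each receptor gene in untreated (grey, 273 cells) and treated (red, 251 cells) mice, with exact binomial 95% intervals, and the lower panel the CPM within each cell that had reads (log axis), 1 point per cell with a line at the median. *Tnfrsf4* had no untreated cell and 16 treated cells, and the levels in single cells spanned several orders of magnitude for most of the genes.

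*Tnfrsf4* encodes OX40, an inducible receptor for OX40L that prolongs T cell survival. It had 0 reads in 273 untreated cells, which allows a share of up to 1.34% by the exact interval, and 25708 reads in 16 of 251 treated cells (6.37%, 3.69 to 10.1), or 172 CPM (170.3 to 175). In the positive cells *Tnfrsf4* was abundant, with a median of 1165 reads and 1 cell with a single read. The highest cell carried 9106 reads, or 35.4% of the sum, and without it the treated level was 112 CPM. With 1 CPM added to both groups its log2 ratio was 7.44, and 0.0948% of the 12659 genes had a ratio at or above it. With 0 untreated reads the size of this ratio depends on the value added. The log2 ratio was 10.75 with 0.1 CPM and 4.19 with 10 CPM, so no rarity is read from it. None of the *Tnfrsf4* reads lay in a cell with reads on macrophage, hepatocyte, B cell or endothelial markers. The 16 cells had a median of 981.5 detected genes, as compared to 840.0 for the 235 treated cells without *Tnfrsf4*, and the part of this difference in the result was not tested.

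*Tnfrsf9* encodes 4-1BB, another inducible receptor of this family. It had 2402 reads in 8 untreated cells (2.93%, 1.27 to 5.69) and 6475 reads in 6 treated cells (2.39%, 0.882 to 5.13), or 13.9 CPM (13.4 to 14.5) and 43.4 CPM (42.4 to 44.5). The sum was higher and the share was lower in treated cells, so no order was read from these values. A single cell carried 66.3% of the untreated reads and 39.5% of the treated ones. The cell names carry 1 of 2 prefixes, read here as 2 sequencing lanes and called A and B (184 and 89 untreated, 173 and 78 treated cells). The labels do not say what else differed between these sets of cells. The log2 ratio of *Tnfrsf9* was -0.44 within lane A and 4.70 within lane B.

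*Tnfrsf18* encodes GITR, a receptor for GITRL found on regulatory and activated T cells. Its reads were spread over many cells of both groups, with 45418 reads in 86 untreated (31.5%, 26.04 to 37.4) and 46927 reads in 74 treated cells (29.5%, 23.9 to 35.5), or 263 CPM (261 to 266) and 315 CPM (312 to 318). The log2 ratio was 0.26 and the 2 intervals of the share overlapped, with share ratios of 0.833 in lane A and 1.18 in lane B. Exons of the antisense gene Gm16008 cover 27.2% of the exon bases of *Tnfrsf18*, and since the strand of the counting is not given in the sources used here, reads of the pair cannot be told apart.

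*Tnfrsf1b* encodes TNFR2, the TNF receptor of lymphocytes that binds membrane-bound TNF. It had 11308 reads in 15 untreated (5.49%, 3.11 to 8.90) and 29099 reads in 22 treated cells (8.76%, 5.57 to 13.0), or 65.5 CPM (64.3 to 66.8) and 195 CPM (193 to 197). The 2 intervals of the share overlapped, and the highest single cell carried 36.8% of the untreated and 11.6% of the treated reads. The log2 ratio was 1.56, and 1.06 and 2.19 within lanes A and B, where the ratios of the shares were 1.30, short of 1.5-fold, and 2.09. Of the 22 treated cells, 4 also held reads on markers of macrophages, hepatocytes, B cells or endothelial cells and carried 10.6% of the reads, and without cells of this kind the ratio of the shares was 1.37 in place of 1.60. The part of those markers in the result was not tested otherwise.

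*Cd27* encodes the receptor for CD70 that supports T cell expansion and memory. It was the receptor with the highest level of the 8 in treated cells, with 34175 reads in 43 untreated cells (15.8%, 11.6 to 20.6) and 76236 reads in 66 treated cells (26.3%, 20.96 to 32.2), or 198 CPM (196 to 200.2) and 511 CPM (508 to 515). The log2 ratio was 1.36, with 1.18 in lane A and 1.71 in lane B. The ratio of the shares was 1.67, with 1.40 in lane A, short of 1.5-fold, and 2.49 in lane B. The highest single cell carried 7.46% of the untreated and 5.15% of the treated reads, so the sum did not rest on a few cells.

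*Icos* encodes the inducible receptor for ICOSL, known for its part in follicular helper T cells and in IL-10 production. Its level per cell was low, with a median of 65.0 reads in the 21 positive untreated cells and 92.5 reads in the 42 positive treated cells. The share of cells with reads was 7.69% (4.82 to 11.5) in untreated and 16.7% (12.3 to 21.9) in treated mice, a ratio of 2.18, and the sums were 16.5 CPM (15.9 to 17.2) and 32.4 CPM (31.5 to 33.3), with a log2 ratio of 0.93. The ratio of the shares was 1.75 in lane A and 3.99 in lane B. The log2 ratio of the sums was 0.31 in lane A and 2.78 in lane B.

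*Cd28* encodes the receptor that provides the classical second signal. Its values were close in both groups, with 8546 reads in 33 untreated (12.1%, 8.47 to 16.6) and 8456 reads in 28 treated cells (11.2%, 7.54 to 15.7), or 49.5 CPM (48.5 to 50.6) and 56.7 CPM (55.5 to 57.9). The log2 ratio was 0.19, with -0.32 in lane A and 1.31 in lane B. The ratio of the shares was 0.681 in lane A and 1.71 in lane B.

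*Cd226* encodes an adhesion and activating receptor of T and NK cells. Among the 3 immunoglobulin-type receptors listed here it was the most widely detected in untreated cells, with 63496 reads in 76 untreated (27.8%, 22.6 to 33.6) and 33101 reads in 47 treated cells (18.7%, 14.1 to 24.1), or 368 CPM (365 to 371) and 222 CPM (219.6 to 224). The log2 ratio was -0.73, with -0.33 in lane A and -1.65 in lane B, and the ratio of the shares was 0.673. The direction was therefore the same in both lanes, while the intervals of the share overlapped.

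When levels were scaled to the exon length of each gene (CPM per kb), the order in untreated cells was *Tnfrsf18* (173), *Cd27* (85.1), *Cd226* (75.2), *Tnfrsf1b* (17.2), *Cd28* (8.09), *Tnfrsf9* (5.11), *Icos* (4.82) and *Tnfrsf4* (0). In treated cells it was *Cd27* (219.7), *Tnfrsf18* (207), *Tnfrsf4* (126), *Tnfrsf1b* (51.1), *Cd226* (45.4), *Tnfrsf9* (15.96), *Icos* (9.44) and *Cd28* (9.26), all in CPM per kb. *Tnfrsf4* thus stood last in untreated cells, and behind only *Cd27* and *Tnfrsf18* in treated cells. The counting intervals of *Tnfrsf9* and *Icos* in untreated cells and of *Icos* and *Cd28* in treated cells overlapped. These intervals leave out the spread between cells as well as between mice. Without the cell with most reads, untreated *Tnfrsf9* was at 4.71 CPM in place of 13.9, and untreated *Icos* at 12.8 in place of 16.5. The order of neighbours is therefore a description, and the spread between mice cannot be read from these tables.

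The study divided the cells into sub-clusters by their expression, and the receptors were distributed unevenly over them. Sub-cluster 2 held 228 untreated and 61 treated cells, sub-cluster 4 held 43 and 133, sub-cluster 3 held 2 untreated cells only, and sub-cluster 5 held 57 cells, all from treated mice. Since the sub-clusters were made from the same expression values, the following is a description without a test. *Tnfrsf4* had reads in 15 of the 57 cells of sub-cluster 5 (26.3%, 15.5 to 39.7), in 1 of 61 treated cells of sub-cluster 2 and in 0 of 133 of sub-cluster 4, which allows up to 2.74%. *Icos* had reads in 29 cells of sub-cluster 5 (50.9%, 37.3 to 64.4), as compared to 11.5% and 4.51% of the treated cells of sub-clusters 2 and 4. Of the 42 treated *Icos*-positive cells, 29 were thus in sub-cluster 5, and both untreated cells of sub-cluster 3 also had *Icos* reads.

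*Tnfrsf18* and *Cd28* differed little between the groups as a whole, yet both were more frequent in sub-cluster 5 than in the other treated cells. *Tnfrsf18* had reads in 49.1% (35.6 to 62.7) of the cells of sub-cluster 5, in 27.8% of sub-cluster 4 and in 14.8% of treated sub-cluster 2, while it was found in 33.8% of untreated sub-cluster 2. *Cd28* had reads in 26.3% of the cells of sub-cluster 5, 4.51% of sub-cluster 4 and 11.5% of treated sub-cluster 2. *Cd27* followed the same order, with 42.1% (29.1 to 55.9), 19.5% and 26.2%. *Tnfrsf1b* had reads in 15.8% (7.48 to 27.9) of the cells of sub-cluster 5, 3.76% of sub-cluster 4 and 13.1% of treated sub-cluster 2, with few positive cells in each. *Cd226* was the reverse: 2 of 57 cells of sub-cluster 5 had reads (3.51%, 0.428 to 12.1), as compared to 26.3% of sub-cluster 4, 16.4% of treated sub-cluster 2 and 34.9% of untreated sub-cluster 4. *Tnfrsf9* had no reads in sub-cluster 5, which allows up to 6.27%, and its 6 treated cells lay in sub-clusters 2 and 4. The cells of sub-cluster 5 had a median of 967 detected genes, as compared to 842 and 777 for treated sub-clusters 4 and 2, and the part of this in the shares was not tested.

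**Figure D2:**
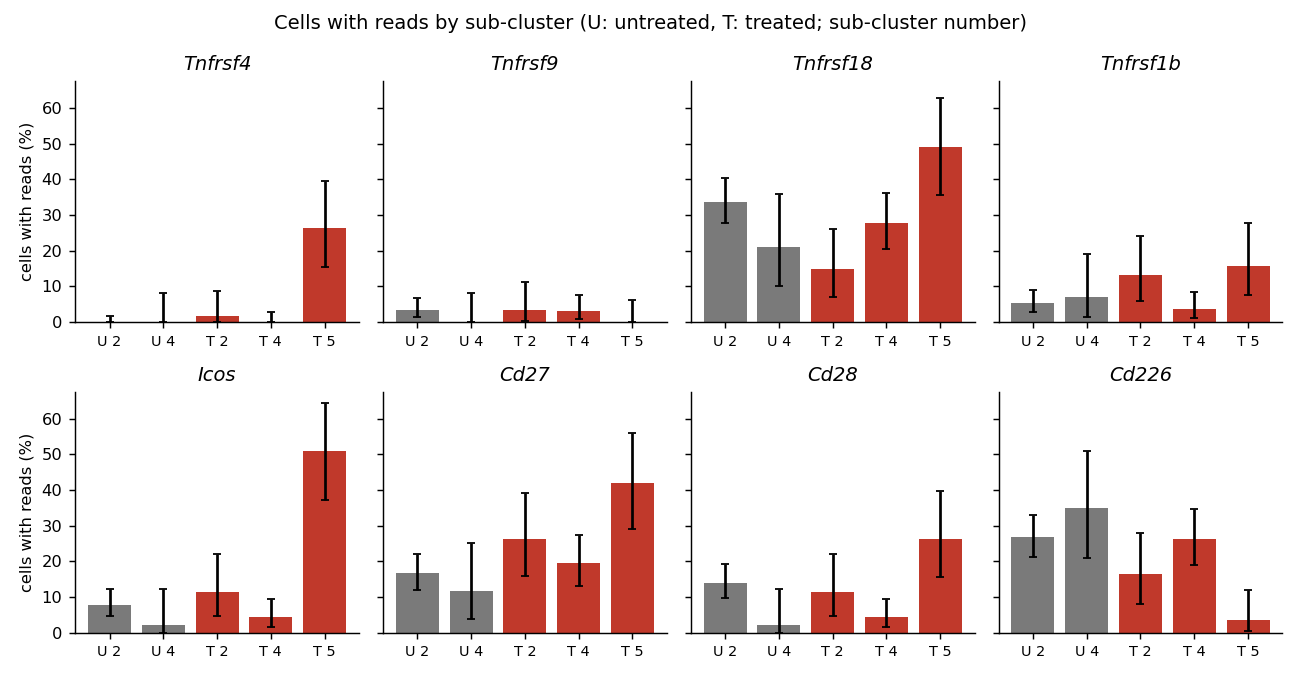
Each panel plots 1 receptor gene, with the percentage of cells with reads in each sub-cluster of untreated (U, grey) and treated (T, red) mice and exact binomial 95% intervals; sub-cluster 3, with 2 untreated cells, is not drawn. *Tnfrsf4*, *Tnfrsf18*, *Tnfrsf1b*, *Icos*, *Cd27* and *Cd28* had their highest bar in treated sub-cluster 5 and *Cd226* its lowest.

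Single cells rarely held reads on many of the receptors. At least 3 of the 8 were detected together in 8.06% of the untreated (22 of 273) and 11.6% of the treated cells (29 of 251). In sub-cluster 5 it was 21 of 57 cells (36.8%), with a mean of 2.14 receptors per cell, as compared to 0.895 in sub-cluster 4 and 0.984 in sub-cluster 2 of treated mice. Of the 16 *Tnfrsf4*-positive cells, 10 had reads on *Cd27*, 7 on *Tnfrsf18*, 6 on *Icos*, 5 on *Cd28*, 2 on *Tnfrsf1b*, 1 on *Cd226* and 0 on *Tnfrsf9*. Among the cells of sub-cluster 5, *Icos* was found in 40.0% of the 15 with and 54.8% of the 42 without *Tnfrsf4*, while *Cd27* was found in 60.0% and 35.7% and *Cd28* in 33.3% and 23.8% of them. Over all 524 cells and 4115 genes with reads in at least 5% of them, the genes most like each of the 6 receptors that passed this minimum had Pearson correlations of 0.29 or less (log2 CPM + 1), with Lag3 and Tigit nearest to *Icos*, Izumo1r to *Cd27*, Traf1 to *Tnfrsf1b*, Il10 to *Tnfrsf18*, Gm9755 to *Cd28* and Txk to *Cd226*. In counts this sparse, where cells also share depth and sub-cluster, such values are given as a description only.

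Reads on the ligands of these receptors in the LiNKT cells themselves differed from gene to gene. Of 11 ligand genes, 4 had no read in either group: Tnfsf4 (OX40L), Tnfsf18 (GITRL), Cd70 and Nectin2 (CD112). Of the 6 with at least 100 summed counts, 1 was 2-fold higher and 3 were 2-fold lower in treated cells. Counts of this list and of those that follow stand against the 23.9% of all genes tested that were higher and the 20.4% that were lower, and nothing particular to a list is read from them. Tnf, which *Tnfrsf1b* binds, was at 126 CPM in 19 cells without and 54.0 CPM in 9 cells with treatment, and Pvr, the CD155 that *Cd226* binds, was at 15.0 CPM in 9 cells and 0.0268 CPM in 1 cell. Lta was at 11.5 CPM in 4 untreated cells and at 0 in treated cells. Cd86, the one that was higher, rested on 2 cells in each group.

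Of the 4 inhibitory receptors that share ligands with *Cd28* and *Cd226*, 2 were 2-fold higher and 1 was 2-fold lower in treated cells. Ctla4, which competes with *Cd28*, had 0 reads in untreated and 689 reads in 16 treated cells (4.62 CPM). Tigit, which competes with *Cd226*, was at 4.94 CPM in 2 cells without and 342 CPM in 41 cells with treatment. Cd96 binds the same ligand as *Cd226* and, like it, was lower in treated cells, with 507 CPM in 41 cells and 146 CPM in 13 cells. Pvrig did not pass 2-fold (149 and 183 CPM). Of the 11 other costimulatory receptors tested, 2 passed 2-fold: Cd244a, at 105 CPM in 15 cells without and 302 CPM in 45 cells with treatment, and Crtam, whose reads came from 1 treated cell.

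Among 7 other TNF receptor superfamily genes tested, Tnfrsf1a (112 and 41.0 CPM), Tnfrsf25 (142 and 53.7 CPM) and Tnfrsf10b (4.51 CPM and 0) were 2-fold lower in treated cells, and Tnfrsf21 was higher through 1 cell. The list had a median log2 ratio of -0.38, as compared to 1.15 for the 8 receptors, both with the 2 lanes together. Within lane A, 3 of the 8 receptors were past 2-fold. Since both lists were chosen with earlier results of these data known, no difference between them as families is read from these medians. Tnfrsf1a encodes TNFR1, the other receptor of TNF, so that the sums of the 2 TNF receptors differed in opposite directions. Of 12 TRAF and other adaptor genes, 2 were 2-fold higher and 1 lower (Traf1 133 and 284 CPM, Tank 35.8 and 77.5 CPM, Siva1 46.0 and 5.33 CPM), with a median log2 ratio of 0.17. Of 17 NF-κB genes, 3 were higher (Chuk, Nfkb1, Nfkbie) and 2 lower (Nfkbiz, Tnfaip3), with a median of 0.085.

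Of 18 genes of CD28 and ICOS signalling tested, 0 were 2-fold higher and 5 lower (Pdk1, Grap2, Pik3ca, Plcg1 and Pik3r1), with a median log2 ratio of 0.087. Of these, Pdk1 encodes pyruvate dehydrogenase kinase 1, a metabolic enzyme, and is no part of this pathway, so that 4 of the 5 bear on it. Pik3r1, a regulatory subunit of PI3-kinase, was at 202 CPM in 37 cells without and 88.1 CPM in 20 cells with treatment. Among the 5 partners of *Cd226*, the LFA-1 chains Itgal (843 and 761 CPM) and Itgb2 (1509 and 1594 CPM) did not pass 2-fold, while Prkca, a protein kinase C, was at 7.37 CPM in 17 cells without and 87.3 CPM in 46 cells with treatment. Of 8 genes that promote or restrain survival, 2 were higher and 0 lower, namely Bcl2l11, which encodes BIM, a protein that promotes apoptosis, and Birc5, through 4 cells. Genes induced by T cell activation were split, with Egr2, Egr3 and Irf4 higher and Egr1 (978 and 206 CPM), Cd69 (1064 and 373 CPM), Nr4a3 and Il2ra lower, out of 11.

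In the methylation data, the deposited table lists 2873 DMRs, and treatment went with lower methylation in 1983 and with higher methylation in 890 of them. Of the 8 receptors, 5 had a DMR within 50 kb of the gene body, namely *Tnfrsf4*, *Tnfrsf18*, *Icos*, *Cd27* and *Cd28*, as compared to 12.7% of all 55418 genes and 16.6% of the 21991 protein-coding genes of the annotation. All 5 had a hypo-methylated DMR (background of 8.83% and 11.3%), and *Icos* and *Cd27* also had a hyper-methylated one (5.02% and 6.90%). No DMR lay within 100 kb of *Tnfrsf9*, *Tnfrsf1b* or *Cd226*. *Tnfrsf4* and *Tnfrsf18* lie 9.552 kb apart on chromosome 4 and share all of their DMRs, so that these 2 genes are not independent. Methylation values are the authors' mean for each group, their depth is unknown, and in pooled cells a change in fewer cells and a smaller change in all cells cannot be told apart.

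The 4 DMRs at *Tnfrsf4* lie around its start on chromosome 4. The most upstream (chr4:156008118-156008901), 4.942 kb before the TSS within Sdf4, had a mean methylation of 85.9% in untreated and 31.3% in treated cells, and all 22 CpG cytosines were lower in treated cells. The second (chr4:156013449-156014991) spans the TSS and the first exons and had 82.5% and 39.7%, with 42 of 42 cytosines lower. The third and the fourth (chr4:156015056-156015333 and chr4:156015334-156015903) adjoin within the gene body, with 98.9% and 82.5%, and 92.4% and 62.1%, and all 10 cytosines of each were lower. All 84 cytosines of the 4 DMRs were thus lower, which the choice of these regions as DMRs largely sets, here and at the genes that follow, and cytosines outside DMRs were not read. The largest loss among the 4 was 54.7 points, at the region farthest from the gene body. As compared to all hypo-methylated DMRs, whose median loss was 37.6 points and of which 17.4% lost at least 50 points, the first and the second lay above the median and the third and the fourth below it.

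Around *Icos*, 4 hypo-methylated DMRs and 1 hyper-methylated DMR lay within 50 kb on chromosome 1. The hypo-methylated DMRs lay 47.193 kb (chr1:60930296-60930734), 40.710 kb (chr1:60936941-60937217) and 2.486 kb (chr1:60975224-60975441) before the TSS and 26.474 kb after the end of the gene (chr1:61026794-61027295). Their means were 81.1% and 30.1%, 89.7% and 27.5%, 80.2% and 20.6%, and 52.9% and 12.3%, in this order, in untreated and treated cells. All 48 of their cytosines were lower in treated cells, and 3 of the 4 lost more than 50 points. The hyper-methylated DMR (chr1:60960564-60960924), 17.003 kb before the TSS, went from 47.9% to 68.9%, with 25 of 26 cytosines higher. A further 4 DMRs lay between 64.661 and 74.830 kb before *Icos*, at the neighbouring gene Ctla4, and all 4 were hypo-methylated. The DMRs 47.193 and 40.710 kb before the TSS of *Icos* thus lie nearer to Ctla4 than to *Icos*. Which of these genes they act on was not tested.

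*Cd27* had no DMR in its body. A hypo-methylated DMR 27.184 kb upstream (chr6:125264194-125264601) had 68.2% in untreated and 32.2% in treated cells, with 20 of 20 cytosines lower. A hyper-methylated DMR 33.558 kb upstream (chr6:125270568-125270896), which overlaps 4930417O13Rik, had 32.2% and 70.4%, with 12 of 12 cytosines higher. The 2 DMRs upstream of *Cd27* thus lay 5.967 kb apart and differed in direction. *Cd28* had 2 hypo-methylated DMRs within the gene. The first (chr1:60753555-60754444), in an intron, had 64.7% and 45.9%, and the second (chr1:60771824-60772158), in the 3′ UTR, 83.5% and 27.6%, with 42 of 42 and 14 of 14 cytosines lower. *Cd28* was thus hypo-methylated in its body, while its RNA sums were close in both groups with both lanes together. The log2 ratios of these sums were -0.32 in lane A and 1.31 in lane B. *Cd28* reads were found in 26.3% of sub-cluster 5, as compared to 11.5% and 4.51% of treated sub-clusters 2 and 4.

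**Figure D3:**
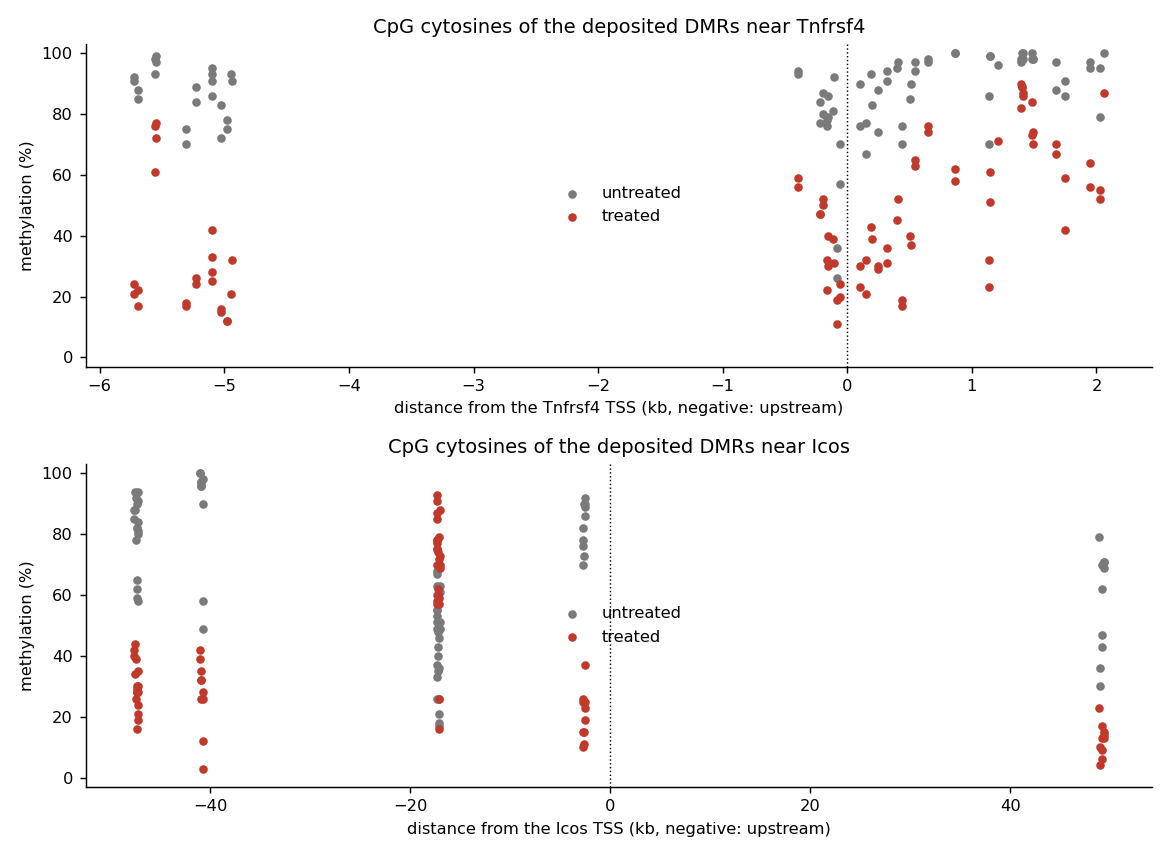
Each point is 1 CpG cytosine of a deposited DMR, with its methylation (%) in untreated (grey) and treated (red) cells against its distance from the TSS (kb, negative values upstream), for *Tnfrsf4* above and *Icos* below. All 84 cytosines at *Tnfrsf4* and 48 at *Icos* were lower in treated cells, and the cluster 17.003 kb before *Icos* was higher in 25 of 26.

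In the multiome, 8565 barcodes with ending 1 (median of 7104 fragments) and 7237 with ending 2 (median of 8591) had at least 1000 fragments. A fragment has an insertion of the transposase into open chromatin at either end, and insertions are given per 1000000 insertions of the same ending (IPM). Of the barcode sequences, 100 occurred with both endings, and leaving them out changed no count of receptors below. Within 2 kb of the gene start, *Tnfrsf4* had 2.20 IPM with ending 1 and 16.9 with ending 2, a ratio of 7.67, and *Cd226* had 5.50 and 2.48, a ratio of 0.450. These were 2 of 8 receptors past 2-fold, 1 in each direction, as compared to 5.96% of 16311 protein-coding genes higher with ending 2 and 0.858% higher with ending 1 (6.82% in either direction). In the gene body, *Tnfrsf4* (1.39 and 8.57 IPM) was the only receptor past 2-fold, as compared to 2.87% and 0.720% of 18339 genes (3.59% in either direction). Its promoter ratio was reached by 0.245% of genes.

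Around the annotated starts of 5 other receptors, insertions were found with both endings and did not differ by 2-fold. The levels with endings 1 and 2 were, in IPM, 66.6 and 85.6 for *Tnfrsf9*, 27.5 and 29.7 for *Tnfrsf18*, 39.5 and 40.7 for *Tnfrsf1b*, 32.6 and 29.4 for *Icos*, and 32.5 and 42.8 for *Cd27*. The ratios of these 5 lay between 0.902 and 1.32. The annotated start of *Tnfrsf9* was thus open with both endings, while 14 cells held its RNA. *Tnfrsf9* overlaps Camta1 on the opposite strand, and around its start of support level 1, 5.593 kb further into the gene, the levels were lower, at 12.04 and 15.9 IPM, with a ratio of 1.32 in place of 1.28. At the annotated start of *Cd28* there was little open chromatin (1.11 and 1.02 IPM). The annotated starts of *Cd28* and *Cd226* also belong to transcripts of weaker support, and around the first start of a transcript with support level 1, which lies 29.558 kb and 20.46 kb further into these genes, the values were 58.1 and 53.9 for *Cd28* and 15.5 and 13.6 for *Cd226*, the latter with a ratio of 0.879. Around those starts *Tnfrsf4* was the only receptor past 2-fold, as compared to 973 of 16304 genes higher with ending 2 and 138 higher with ending 1. This window was chosen after the data had been seen.

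The share of nuclei with an insertion was read in the same windows. For *Tnfrsf4* it was 2.12% (1.83 to 2.45) of nuclei with ending 1 and 12.4% (11.6 to 13.2) with ending 2, and 1.57% and 10.4% when each nucleus was thinned to 5000 fragments, leaving 5410 and 5046 nuclei. For *Tnfrsf9* it was 39.2% (38.2 to 40.3) and 48.6% (47.5 to 49.8), and 38.3% and 46.2% when thinned. For *Tnfrsf1b* it was 26.7% and 29.6%, and for *Cd28* 1.05% and 1.01%, with *Tnfrsf1b* at 25.1% and 26.1% when thinned. For *Icos* it was 22.8% and 22.7% (20.8% and 19.5% thinned), and for *Tnfrsf18* 20.2% and 23.8% (18.2% and 19.7% thinned). For *Cd27* it was 22.7% (21.8 to 23.6) and 30.3% (29.3 to 31.4). *Cd226* was at 4.61% (4.18 to 5.08) and 2.27% (1.94 to 2.64). Thinned, *Cd27* was at 20.7% and 26.5% and *Cd226* at 3.98% and 1.70%, so that their order did not change with the depth of the nuclei, while the gaps of *Tnfrsf18* and *Tnfrsf1b* were smaller at equal depth. A nucleus without an insertion is not shown to be closed, since an open site gives few fragments per nucleus.

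**Figure D4:**
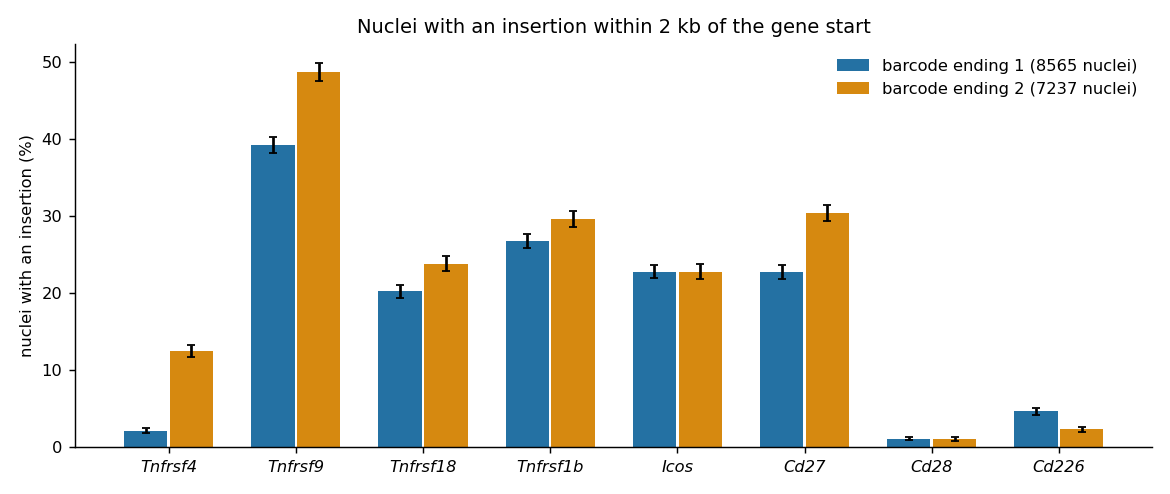
Bars give the percentage of nuclei with at least 1 insertion within 2 kb of the annotated start of each receptor gene, for barcode ending 1 (blue, 8565 nuclei) and ending 2 (orange, 7237 nuclei), with exact binomial 95% intervals. *Tnfrsf4* was at 2.12% and 12.4%, and *Icos* at 22.8% and 22.7%.

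At the DMRs the 2 endings differed more than at most promoters. The DMR upstream of *Tnfrsf4*, whose central part is printed above as Tnfrsf4 upstream, had 0.590 IPM with ending 1 and 10.8 with ending 2, a ratio of 18.4, and 0.584% and 9.30% of nuclei. The DMR over its TSS had 0.946 and 10.8, a ratio of 11.4. At *Icos*, Icos upstream had 0.0491 and 4.87 (ratio of 99.1, from 8 and 729 insertions), the far upstream DMR 0.166 and 6.02 (36.3), the downstream DMR 0.596 and 6.02 (10.1) and Icos proximal 0.203 and 0.681 (3.36). The hyper-methylated DMR of *Icos* had 0.547 and 0.421 (0.770). The far upstream, upstream and downstream DMRs around *Icos* were thus open almost only with ending 2. Of these, the far upstream and upstream ones lie nearer to Ctla4 than to *Icos*. The *Icos* promoter was open with both endings, at a ratio of 0.902 within 2 kb of the TSS. Within 500 bases of the TSS it had 24.5 IPM with ending 1 and 19.6 with ending 2.

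The same sign was found at the other genes. The hypo-methylated DMR upstream of *Cd27* had 0.497 and 1.53 IPM (ratio of 3.07) and the hyper-methylated one 1.25 and 0.407 (0.325). The DMRs in *Cd28* had ratios of 1.40 and 2.74. Over the 1384 hypo-methylated DMRs of the whole genome with at least 100 insertions, 75.7% were at least 2-fold higher with ending 2, as compared to 0.519% of 771 hyper-methylated ones. The median log2 ratio over these hypo-methylated DMRs was 2.08, so the direction at the receptors was shared with most DMRs of these data.

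**Figure D5:**
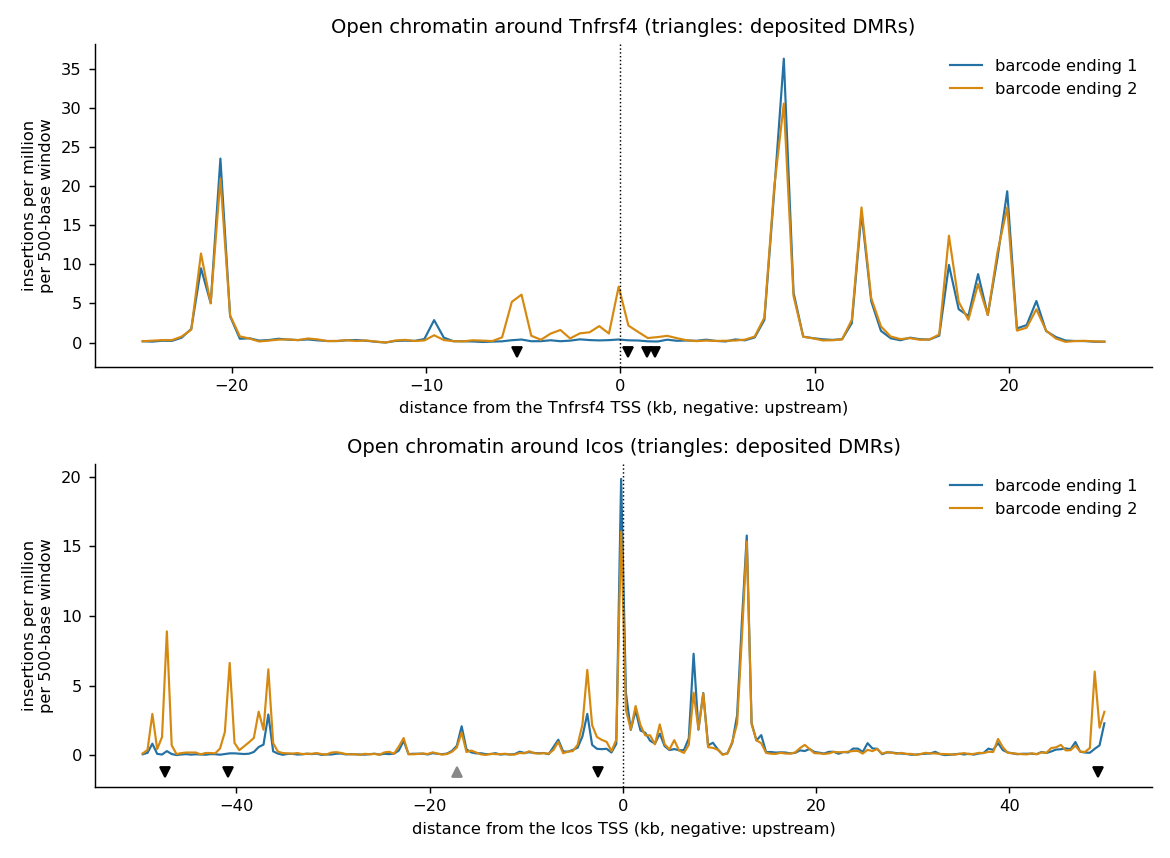
Insertions in windows of 500 bases, in IPM, are plotted against the distance from the TSS (kb, negative values upstream) of *Tnfrsf4* (above) and *Icos* (below), for barcode endings 1 (blue) and 2 (orange), with black triangles at hypo-methylated and a grey triangle at the hyper-methylated DMR. Around *Tnfrsf4* the signal over the TSS and 5 kb upstream appears with ending 2, while around *Icos* the promoter peak is present with both endings and the peaks at the far upstream DMRs with ending 2.

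Set side by side, the receptors differed in which readouts moved. *Tnfrsf4* had no RNA reads in untreated cells, 4 hypo-methylated DMRs and 7.67-fold more insertions at its promoter with ending 2. *Icos* had RNA in both groups and a larger share of positive cells with treatment. It had hypo-methylated DMRs on both sides, the distal upstream ones nearer to Ctla4, and 1 hyper-methylated DMR. The *Icos* promoter was open with both endings, at a ratio of 0.902. *Cd27* had higher RNA with DMRs only at a distance. *Tnfrsf1b* had a higher RNA sum, a ratio of the shares short of 1.5-fold in lane A, no DMR within 100 kb and a promoter ratio of 1.03. *Cd28* had hypo-methylated DMRs and no 2-fold difference in RNA with both lanes together, while its log2 ratio was 1.31 in lane B. *Cd226* had no DMR within 100 kb and an RNA difference that passed neither fold with both lanes together, while its log2 ratio was -1.65 in lane B. The insertions of *Cd226* had a ratio of 0.450 at its annotated start and 0.879 at the start of support level 1. *Tnfrsf9* had open chromatin at its annotated start and RNA reads in 14 cells in all. *Tnfrsf18* shared the DMRs of *Tnfrsf4*, and its own RNA sum and promoter had log2 ratios of 0.26 and 0.11.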

How the data were processed

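For SmartSeq2, the authors aligned reads with STAR to GRCm38 and deposited a raw count per gene and cell, and since no molecular identifiers were used a count is a read. For WGBS, the deposited values are the fraction of reads that were methylated at each cytosine and, per region, the authors' mean fraction of each group. How replicates were merged, and the read depth, are not given in the sources used here. The q-values and differences of the authors' own comparison were not used. For the multiome, the authors deposited fragments with their read count, aligned and freed of duplicates by the Cell Ranger software named in the submitters' processing notes. Bulk ATAC-seq, ChIP-seq and 10X RNA data were not analysed here.

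From these, counts of the 273 and 251 cells in the study's list of sub-clusters were summed per group and scaled to CPM. The 11 untreated and 31 treated cells of the tables that are not in this list were left out. Sums have exact Poisson and shares exact Clopper-Pearson 95% intervals, and both cover counting error only. The log2 ratio used a prior of 1 CPM. The limit for a share of 0 is the upper end of its exact interval. Genes were called at 2-fold in the sums (at least 100 summed counts), at 1.5-fold in the shares (reads in at least 20 cells), by a DMR within 50 kb of the gene body (at least 1 base) and at 2-fold in insertions of barcodes with at least 1000 fragments (at least 100 insertions). The same was done for all genes as a background. Doublets were not called, as SmartSeq2 cells were sorted singly, nor were they called or removed among the multiome nuclei. Genes follow GENCODE M21, which held 55141 of the 55401 gene IDs. Coordinates are GRCm38. The calling of the sums was tested on simulated Poisson counts, which lack the spread between cells, and the overlap of regions with genes on simulated positions. The other calculations were not tested in this way. Python 3.11.15, pandas 2.3.3, scipy 1.17.1, numpy 2.4.6 and, for 1 alternative scaling, edgeR 4.0.16 in R 4.3.3 were used.

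The 8 receptors, the gene lists and the marker lists were chosen with earlier results of these data known. Named genes are the 8 receptors, at most 4 genes per list past 2-fold, the 3 genes most like each of 6 receptors, those detected in 5% of cells or more (of which the nearest are named), every DMR within 50 kb and genes that overlap a receptor or its DMRs. Other genes named (Tnfsf4, Tnfsf18, Cd70, Nectin2, Pvrig, Itgal, Itgb2, Trav11, Eomes, Foxp3, Ikzf2, Nrp1, Clec4f, and Nfkbie, Pik3r1, Irf4, Il2ra and Cd69, which are beyond the first 4 of their lists) were added after their values had been seen. Alternatives were other cells, scalings, priors, filters, read minimums, depth, lanes, distances and windows.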

Additional observations from a re-analysis of the deposited data

Results flagged for a closer look

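Reads on *Tnfrsf4* were also found in cells outside the comparisons, which is why they are given here. Of the 31 treated cells that the study's list gives no sub-cluster, 4 had *Tnfrsf4* reads (12.9%, 10004 reads in all), as compared to 0 of the 11 untreated cells left out and 0 of 273 untreated cells used. With them, 20 treated cells of the whole table had *Tnfrsf4* reads. The other receptors were detected in left-out cells of both groups, except *Tnfrsf9*, which had reads in 2 treated and 0 untreated ones. A larger share in left-out than in used treated cells was not particular to *Tnfrsf4*. It was found for every receptor but *Cd226* (12.9% and 18.7%), such as *Icos* (35.5% and 16.7%) and *Tnfrsf1b* (29.0% and 8.76%).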

How the results depend on the processing

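Of 35 counts of receptors under alternatives, 30 stayed within 1.5 times the reported count and 5 did not. The number of receptors past 2-fold in the sums was 7 in place of 4 within lane B, where *Icos*, *Cd28* and (lower in treated cells) *Cd226* were added, and 3 within lane A, as compared to 60.5% and 51.6% of all genes tested within these lanes. It was 5, with *Icos* added, both with all cells of the tables and without the cell of each group with most reads (42.7% and 43.8% of all genes tested). The number past 1.5-fold in the shares was 5 in place of 3 with all cells of the tables, where *Tnfrsf4* and (lower) *Cd226* were added, and 1 within lane A (*Icos*). Of all genes tested, 24.4% and 25.6% passed in these settings, in either direction, as compared to 24.1% in the main one. Within lane B it was 3 (*Cd27*, *Cd28* and, lower, *Cd226*) of the 4 with reads in enough cells, as compared to 22.8% of all genes tested there. *Icos* and *Tnfrsf1b*, with ratios of 3.99 and 2.09, were below that minimum. *Cd226* (lower) also passed with at least 5 reads, at least 10 reads and cells thinned to 1 depth, each with 4 receptors. Of all genes tested, 26.3%, 26.6% and 23.2% passed, in this order. Within 10 kb in place of 50 kb, 3 receptors had a DMR in place of 5 (*Tnfrsf4*, *Icos*, *Cd28*). The share over all genes was also smaller, at 5.19% in place of 12.7%, and 8.25% in place of 16.6% of protein-coding genes. With the start of transcripts of support level 1, 1 receptor was past 2-fold in the promoter in place of 2. Of 16304 genes, 973 were higher with ending 2 and 138 with ending 1 there. Of 208 values of single receptors, 151 stayed within the 95% counting interval of the reported value and 56 did not. Besides these, 1 value past its fold changed sign, namely *Tnfrsf9* in lane A (-0.44 on the log2 scale, as compared to 1.57 in all cells). Values not past their fold also changed sign, such as *Cd28* in lane A (-0.32, as compared to 0.19). The cause was not tested. A prior of 10 CPM left 1283 genes higher and 1104 lower (18.9% of all tested, as compared to 44.3%), while *Tnfrsf4*, *Tnfrsf9*, *Tnfrsf1b* and *Cd27* stayed past 2-fold. Alternatives without cells that hold markers of other cell types, without shared barcodes and with other start sites were added after the data had been seen. No paired analysis was possible because each group used here is 1 sample, and for the same reason no replicate could be left out. The number of cells also limits the values, since *Tnfrsf4* and *Tnfrsf9* rest on 16 and 14 cells in all, and for methylation the depth is unknown.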
